A study of Homo sapiens with 6 samples.

Results

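The 10 genes described here are the transcription factors and effectors of the integrated stress response: ATF4, DDIT3, ATF3, ATF5, CEBPB, CEBPG, TRIB3, CHAC1, PPP1R15A and NUPR1. They were taken by gene name from an RNA-seq table of 60664 genes, and each name matched 1 row. The metabolic enzymes that ATF4 controls are not among them. The cells were 67R, a line derived from the lung adenocarcinoma line NCI-H1975 by dose escalation of ASK120067, an inhibitor of the epidermal growth factor receptor (EGFR). Both groups were of these resistant cells, and parental cells were not part of the experiment. One group (siNC, n = 3 libraries) received a negative control siRNA and the other (siBCAT1, n = 3 libraries) siRNA against BCAT1, the cytosolic transaminase of leucine, isoleucine and valine. The labels name no siRNA sequence, drug exposure or time for these libraries. They also do not say whether the libraries of a group came from separate cultures, so p-values measure the spread between these libraries. The paper's methods use the name siBCAT1 for a single siRNA sequence. If it was the one used here, its effects on other genes cannot be told apart from those of losing BCAT1.

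The integrated stress response is a way for cells to slow protein synthesis and turn on repair genes at the same time. Sensor kinases of unfolded protein, missing amino acids, viral RNA or missing heme phosphorylate the initiation factor eIF2. Phosphorylated eIF2 blocks its own exchange factor eIF2B, and most translation falls. A few mRNAs with short reading frames in their leaders, ATF4 among them, are then translated better. ATF4 is a basic leucine zipper (bZIP) factor that binds DNA as a dimer with C/EBP factors and raises genes of amino acid synthesis, amino acid uptake and tRNA charging. It also raises DDIT3, which encodes the factor CHOP. PPP1R15A (GADD34) guides a phosphatase to eIF2 and so ends the response, and TRIB3 is a pseudokinase that holds back ATF4 and CHOP. Most control of ATF4 takes place at translation, which RNA-seq does not measure.

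The sequences before the start sites of 4 genes are shown because they carry the letters of known stress response elements. PPP1R15A and its paralogue PPP1R15B were picked because their mRNAs moved in opposite directions. They hold different elements, but whether any element bears on the change of its gene was not tested. The sequences are the RefSeq bases on GRCh38.p14 before the exon that holds the start site. They are printed 5′ to 3′ on the strand of the gene, and capitals mark the element. PPP1R15A is chr19:48872171-48872391 on the plus strand and its capitals are the cyclic AMP response element (CRE) TGACGTCA. PPP1R15B is chr1:204411818-204412067 on the minus strand and its capitals are a match to the core of the C/EBP-ATF response element (CARE), TGATGNAA. ATF3 is chr1:212565157-212565333 on the plus strand and its capitals are a CARE match. DDIT3 is chr12:57520518-57520764 on the minus strand and its capitals are an AP-1 site, TGANTCA. This last stretch lies inside the span annotated for DDIT3, which reaches farther upstream.
PPP1R15A: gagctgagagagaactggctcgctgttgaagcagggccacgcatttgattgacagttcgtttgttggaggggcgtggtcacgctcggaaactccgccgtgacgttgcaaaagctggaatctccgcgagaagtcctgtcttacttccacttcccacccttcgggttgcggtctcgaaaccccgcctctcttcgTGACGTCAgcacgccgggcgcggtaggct
PPP1R15B: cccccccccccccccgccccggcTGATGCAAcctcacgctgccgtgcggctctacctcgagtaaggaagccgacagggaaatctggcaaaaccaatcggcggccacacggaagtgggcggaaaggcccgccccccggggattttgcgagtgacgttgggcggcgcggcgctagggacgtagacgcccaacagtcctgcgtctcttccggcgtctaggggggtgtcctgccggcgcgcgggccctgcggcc
ATF3: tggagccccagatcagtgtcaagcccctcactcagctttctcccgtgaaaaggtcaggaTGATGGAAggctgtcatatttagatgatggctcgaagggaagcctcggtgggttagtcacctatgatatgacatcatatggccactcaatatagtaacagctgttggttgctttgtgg
DDIT3: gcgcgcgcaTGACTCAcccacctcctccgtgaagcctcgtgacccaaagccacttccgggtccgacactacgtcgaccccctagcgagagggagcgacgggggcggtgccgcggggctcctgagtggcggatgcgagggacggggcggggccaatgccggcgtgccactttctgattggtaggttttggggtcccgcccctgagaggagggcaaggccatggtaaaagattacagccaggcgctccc

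Promoter windows of 300 bases, 250 before and 50 from the start site, were found for 9 of the 10 genes. Both strands were searched, and no 2 matches overlapped. The CRE of PPP1R15A began 58 bases before its start site, and 1.98% of 27305 RefSeq promoters hold a CRE. The CARE core was found in ATF3 (TGATGGAA, 191 bases before the start) and on the opposite strand in CHAC1 (TTGCATCA, 209 bases before it), against 3.67% of all promoters. PPP1R15B held TGATGCAA 227 bases before its start. The AP-1 site TGACTCA lay 241 bases before the start of DDIT3 and 188 bases before that of ATF5, against 7.76% of promoters. ATF4, CEBPB, CEBPG and TRIB3 held none of these letters in their windows. A single start site per gene was searched, and the windows of ATF4, CEBPG and TRIB3 lie inside the spans annotated for these genes. The ER stress element, bound by ATF6 with NF-Y, was in 0.0806% of promoters and in none of the 9 windows.

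The leaders of the mRNAs, from the start of the principal GENCODE 29 transcript to its coding sequence, were searched for upstream ATG triplets. Where a gene had several transcripts of the best principal rank, the longest was used, for all tested genes alike. ATF4 had the most, with 7 in a leader of 882 bases. The deposited data give ATF4 a length of 1306 bases, and which transcripts the cells made was not tested. CEBPG and TRIB3 had 3 each, in leaders of 662 and 553 bases. DDIT3 had 2 in 209 bases, ATF5 had 2 in 377, PPP1R15A had 2 in 269 and NUPR1 had 2 in 267. ATF3 had 1 in 265 bases. CEBPB, with a leader of 300 bases, and CHAC1, with a leader of 20 bases, had none. At least 1 was present in 8 of the 10 genes, against 52.8% of 11673 tested genes, and at least 2 in 7 of them, against 31.9%. The median leader of the tested genes was 199 bases, and the comparison was not matched for leader length.

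The authors deposited 1 value per gene and library, read here as TPM, which is a level per length of the gene and relative to the whole library. The values of a library summed to between 992512 and 995593 TPM, and between 23152 and 25043 genes were above 0. TPM values carry no read counts, so the depth is unknown. BCAT1 was at 42.7, 42.18 and 29.76 TPM in siNC replicates 1 to 3 and at 8.78, 7.1 and 8.0 TPM in siBCAT1 replicates 1 to 3, with a log2 fold change of -2.12 ± 0.15 (SE, limma adjusted p = 0.000272). The mitochondrial paralogue BCAT2 had a log2 fold change of -0.13 (limma adjusted p = 0.175). Of 9 epithelial and lung adenocarcinoma markers 7 were at 1 TPM or more, and the lung lineage markers NKX2-1 and NAPSA were below it. Summed levels of these markers were 2560 to 2970 TPM in siNC and 1660 to 1950 TPM in siBCAT1 libraries. Leukocyte markers summed to at most 3.9 TPM, endothelial markers to at most 2.61 TPM, erythroid markers to at most 0.19 TPM and fibroblast markers, led by COL1A1, to at most 18.0 TPM. The part of the lower epithelial marker sum in the results below was not tested.

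Knockdown of BCAT1 came with higher mRNA of 5 of the 10 genes. DDIT3 as listed rose by 2.05-fold, PPP1R15A by 1.71-fold, CEBPG by 1.54-fold and TRIB3 by 1.53-fold, and ATF4 itself rose by 1.2-fold. The DDIT3 value leaves out a nested gene described below. The ATF4 call was lost in 10 of 14 alternative fits. With median-ratio scaling or quantile normalization 4 of the 10 genes were higher. ATF3, ATF5, NUPR1, CHAC1 and CEBPB did not pass the test. None of the 10 passed it as lower, with 0 at an unadjusted p under 0.05 in limma as well. Levels were tested with limma on log2(TPM + 1), a scale on which changes of low genes are understated, over the 14286 genes whose mean reached 1 TPM, and all 10 genes were among these. Of all tested genes 27.1% passed the adjusted threshold of 0.05 in either direction, 16.7% as higher and 10.4% as lower. These were 2382 and 1483 genes, against 1957 and 1802 with median-ratio scaling and 2042 and 1865 with quantile normalization. The median log2 fold change of the 10 genes was 0.48, against 0.04 over all tested genes, and 8 of the 10 values were above 0. The lowest siBCAT1 library was above the highest siNC library for the same 5 genes, a pattern shown by 26.1% of tested genes. The groups did not overlap, in either direction, for 44.1% of tested genes. The 10 genes were chosen with earlier results of these data known, so these comparisons with all tested genes are not independent evidence.

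**Figure D1:**
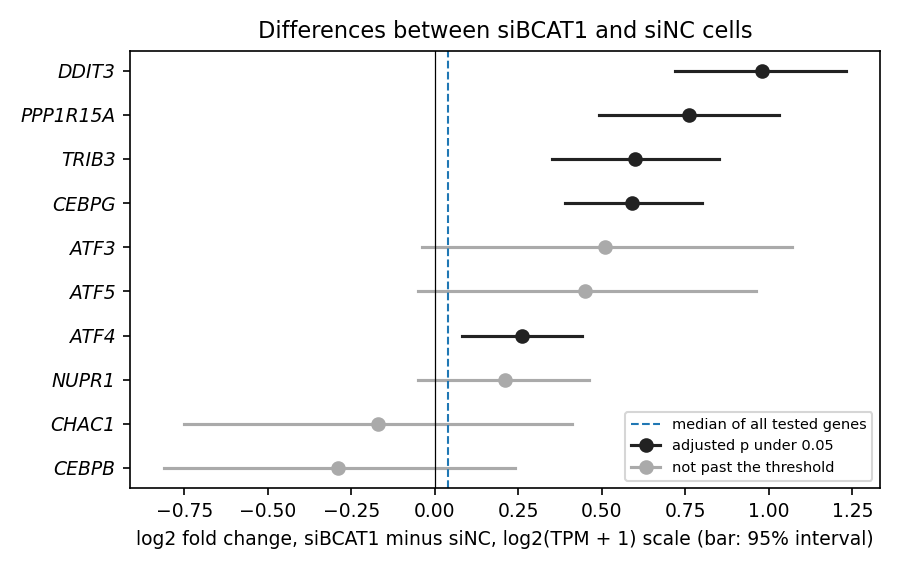
Log2 fold changes of the 10 genes, siBCAT1 minus siNC, on the log2(TPM + 1) scale (horizontal axis), with 95% intervals from limma as bars. Black points passed an adjusted p of 0.05 and grey points did not; the dashed line is the median of all tested genes, 0.04, and DDIT3 lies farthest to the right at 0.98.

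ATF4 (ENSG00000128272, GRCh38 chromosome 22, 39519695 to 39522685) was by far the most abundant of the 10 mRNAs. Its level was 392.01, 347.22 and 378.64 TPM in siNC replicates 1 to 3 and 453.94, 404.33 and 481.26 TPM in siBCAT1 replicates 1 to 3. The groups did not overlap, but the lowest siBCAT1 library was close to the highest siNC library. The mean rose from 373 ± 23.0 to 447 ± 39.0 TPM (SD, n = 3), with a log2 fold change of 0.26 ± 0.08 (SE, 95% interval 0.08 to 0.44, limma adjusted p = 0.0451). This call was lost in 10 of 14 alternative fits, where the adjusted p reached up to 0.136. Among these, the fits without siNC replicate 1, 2 or 3 gave adjusted p = 0.08, 0.105 and 0.109, and those without siBCAT1 replicate 1 or 3 gave 0.136 and 0.134. The log2 fold change stayed between 0.19 and 0.33 in all 14. The table also lists 4 ATF4 pseudogenes, none above 0.22 TPM in any library.

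DDIT3 (ENSG00000175197, chromosome 12, 57516588 to 57521737, minus strand) encodes CHOP, which dimerises with C/EBP factors and drives cell death genes when stress persists. In siNC cells it was at 12.76, 12.02 and 10.74 TPM in replicates 1 to 3, the lowest of the 10 as listed, though not with the nested gene described next added. In siBCAT1 cells it was at 24.95, 21.46 and 26.49 TPM, so every siBCAT1 library was above every siNC library. The mean rose from 11.8 ± 1.02 to 24.3 ± 2.58 TPM (SD, n = 3), a fold of 2.05, with a log2 fold change of 0.98 ± 0.11 (SE, 95% interval 0.72 to 1.23, limma adjusted p = 0.00119). It kept this call in all alternatives tried, with log2 fold changes of 0.88 to 1.18.

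A second gene of the table, ENSG00000285133, lies wholly within DDIT3. All 105 bases of its exon are also bases of DDIT3 exons on the same strand. By position, a read within it is also a read of DDIT3, so the counting may have split reads between the nested gene and DDIT3. Whether the nested gene is a separate mRNA was not tested. It was listed at 65.44, 29.23 and 93.97 TPM in siNC replicates 1 to 3 and at 49.17, 218.23 and 312.71 TPM in siBCAT1 replicates 1 to 3. These values overlapped between groups and varied far more between libraries than those of DDIT3. Weighted by length, the nested gene made up 16.2% to 53.7% of the sum of both. With it added, DDIT3 stood at 19.2, 14.9 and 19.99 TPM in siNC and at 29.79, 42.94 and 57.26 TPM in siBCAT1 cells, and the groups stayed apart (log2 fold change 1.18, limma adjusted p = 0.00947). This sum was chosen after the data were seen. DDIT3 also overlaps MARS1 (244.96 to 315.94 TPM) and MBD6 (11.53 to 16.15 TPM) on the other strand. The libraries were stranded, but the strand setting of the counting is not given in the sources used here. Whether reads of the other strand entered the DDIT3 values is therefore unknown.

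CEBPG (ENSG00000153879, chromosome 19, 33373330 to 33382686) is a C/EBP factor without a strong activation domain that pairs with ATF4. It was at 16.23, 14.87 and 15.78 TPM in siNC and at 24.96, 22.01 and 25.42 TPM in siBCAT1 replicates 1 to 3. The groups were well apart, and siNC libraries differed little, with a coefficient of variation of 4.43%. The mean rose from 15.6 ± 0.693 to 24.1 ± 1.85 TPM (SD, n = 3), with a log2 fold change of 0.59 ± 0.09 (SE, 95% interval 0.39 to 0.8, limma adjusted p = 0.00342).

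CEBPB (ENSG00000172216, chromosome 20, 50190734 to 50192689) is the C/EBP factor that ATF4 and CHOP share as a partner, and it is also turned on by cytokines. It was at 67.26, 43.99 and 77.37 TPM in siNC and at 46.74, 42.49 and 63.06 TPM in siBCAT1 replicates 1 to 3. The ranges overlapped, and the lowest value of each group came from replicate 2. The log2 fold change was -0.29 ± 0.22 (SE, 95% interval -0.81 to 0.24, limma adjusted p = 0.386), so both a fall and a small rise lie within the interval. It was -0.52 without siNC replicate 2, -0.45 without siBCAT1 replicate 3, -0.12 without siNC replicate 3 and -0.17 without siBCAT1 replicate 2. Its antisense gene CEBPB-AS1 was at most at 0.29 TPM. The ratio of CEBPG to CEBPB was 0.241, 0.338 and 0.204 in siNC and 0.534, 0.518 and 0.403 in siBCAT1 replicates 1 to 3. The mean ratio was 0.261 ± 0.0692 in siNC and 0.485 ± 0.0714 in siBCAT1 cells (SD, n = 3), without overlap. An exact permutation test of a ratio cannot give a p below 0.1 with 3 against 3 libraries, so ratios are given as descriptions.

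ATF3 (ENSG00000162772, chromosome 1, 212565334 to 212620777) is a stress-induced bZIP factor that can repress its own targets. It was at 17.76, 13.84 and 21.9 TPM in siNC and at 27.36, 18.23 and 33.04 TPM in siBCAT1 replicates 1 to 3. The group ranges overlapped, because siBCAT1 replicate 2 was below siNC replicate 3. Its log2 fold change was 0.51 ± 0.23 (SE, 95% interval -0.04 to 1.07, limma adjusted p = 0.15), and 0.33 without siBCAT1 replicate 3 (adjusted p = 0.38). The fold of the means, 1.47, was near that of TRIB3, but the SD was larger, 4.03 TPM among siNC and 7.47 TPM among siBCAT1 libraries (n = 3).

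ATF5 (ENSG00000169136, chromosome 19, 49928702 to 49933935) is a bZIP factor of the mitochondrial unfolded protein response, translated by the same leader mechanism as ATF4. It was at 26.03, 46.55 and 32.02 TPM in siNC and at 38.3, 53.56 and 49.79 TPM in siBCAT1 replicates 1 to 3. Replicate 2 was the highest library of both groups, and the ranges overlapped. The log2 fold change was 0.45 ± 0.22 (SE, 95% interval -0.05 to 0.96, limma adjusted p = 0.163), and 1 library could move it either way. It was 0.68 without siNC replicate 2, where it passed the threshold (adjusted p = 0.0338), and 0.27 without siNC replicate 1 (adjusted p = 0.424). ATF5 overlaps NUP62 on the other strand, a nuclear pore gene at 75.94 to 87.85 TPM, and its reads cannot be told apart from those of NUP62 if strand was not used.

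TRIB3 (ENSG00000101255, chromosome 20, 362835 to 397559) was at 44.89, 37.43 and 42.38 TPM in siNC and at 65.77, 55.62 and 69.48 TPM in siBCAT1 replicates 1 to 3. All siBCAT1 libraries were above all siNC libraries. The mean rose from 41.6 ± 3.8 to 63.6 ± 7.18 TPM (SD, n = 3), with a log2 fold change of 0.6 ± 0.11 (SE, 95% interval 0.35 to 0.85, limma adjusted p = 0.00694). Its paralogues TRIB1 and TRIB2, at means of 7.5 and 1.56 TPM in siNC cells, had log2 fold changes of -0.29 and -0.41 and did not pass the test (limma adjusted p = 0.0871 and 0.226).

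PPP1R15A (ENSG00000087074, chromosome 19, 48872392 to 48876057), the stress-induced phosphatase subunit, showed the second largest difference of the 10. It was at 27.64, 24.48 and 32.3 TPM in siNC and at 47.52, 44.63 and 52.35 TPM in siBCAT1 replicates 1 to 3. The groups were far apart compared with their spread. The mean rose from 28.1 ± 3.93 to 48.2 ± 3.9 TPM (SD, n = 3), with a log2 fold change of 0.76 ± 0.11 (SE, 95% interval 0.49 to 1.03, limma adjusted p = 0.00357). Its constitutive paralogue PPP1R15B, which serves the same phosphatase in unstressed cells, moved the other way, from 34.5, 33.17 and 30.21 TPM to 24.58, 22.78 and 20.46 TPM. The log2 fold change of PPP1R15B was -0.51 ± 0.09 (SE, limma adjusted p = 0.00794). The ratio of PPP1R15A to PPP1R15B was 0.801, 0.738 and 1.07 in siNC and 1.93, 1.96 and 2.56 in siBCAT1 replicates 1 to 3, so the inducible form was the more abundant mRNA in every siBCAT1 library and in 1 siNC library.

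CHAC1 (ENSG00000128965, chromosome 15, 40952962 to 40956519) encodes an enzyme that degrades glutathione and is a known target of ATF4 and CHOP. It was at 20, 13.19 and 20.39 TPM in siNC and at 14.15, 11.8 and 22.09 TPM in siBCAT1 replicates 1 to 3. The ranges overlapped, and the siBCAT1 libraries varied most among the 10 genes, with a coefficient of variation of 33.7%. The log2 fold change of -0.17 ± 0.25 (SE, 95% interval -0.75 to 0.41) did not pass the test (limma adjusted p = 0.65). Without siBCAT1 replicate 2 it was 0.01 (adjusted p = 0.981), so its direction rests on that library. Without siBCAT1 replicate 3 or siNC replicate 2 it was -0.41 and -0.36, and without siNC replicate 1 or 3 or siBCAT1 replicate 1 it was -0.08, -0.07 and -0.11. The paralogue CHAC2, which degrades glutathione at a slower, constant rate, fell from 12.36, 17.86 and 13.41 TPM to 7.19, 7.78 and 8.39 TPM, with a log2 fold change of -0.81 ± 0.14 (SE, limma adjusted p = 0.00721).

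NUPR1 (ENSG00000176046, chromosome 16, 28532708 to 28539174, minus strand) encodes a small chromatin protein induced by cell stress. It was at 46.3, 36.3 and 45.05 TPM in siNC and at 51.08, 45.1 and 51.09 TPM in siBCAT1 replicates 1 to 3. Only siBCAT1 replicate 2 lay within the siNC range. The log2 fold change was 0.21 ± 0.11 (SE, 95% interval -0.05 to 0.46, limma adjusted p = 0.2), and 0.10 without siNC replicate 2 (adjusted p = 0.401).

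**Figure D2:**
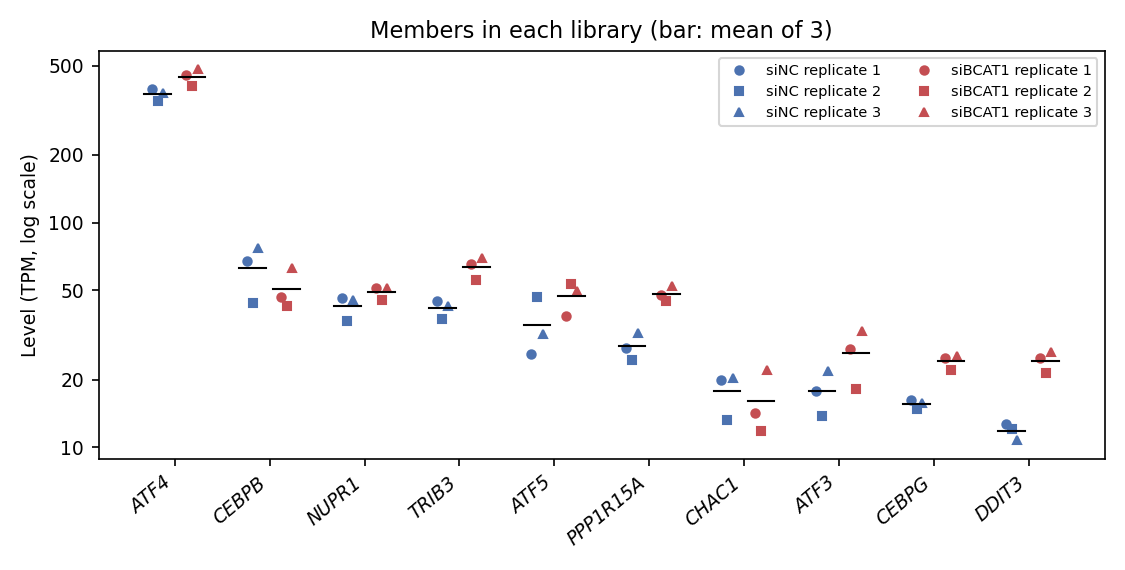
Level of each of the 10 genes in each library in TPM (vertical axis, log scale), ordered by the siNC mean, with siNC in blue, siBCAT1 in red, 1 symbol per replicate and a bar at the mean of 3. ATF4 lies between 347.22 and 481.26 TPM, far above the other genes, and the red and blue points are apart for ATF4, TRIB3, PPP1R15A, CEBPG and DDIT3.

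The order of the levels within each group was compared over the libraries, since TPM is scaled for length. In siNC cells it ran ATF4, CEBPB, NUPR1, TRIB3, ATF5, PPP1R15A, CHAC1, ATF3, CEBPG and DDIT3. Only 3 pairs of neighbours in this order had ranges that did not overlap, namely ATF4 and CEBPB, PPP1R15A and CHAC1, and CEBPG and DDIT3. In siBCAT1 cells it ran ATF4, TRIB3, CEBPB, NUPR1, PPP1R15A, ATF5, ATF3, DDIT3, CEBPG and CHAC1. There ATF4 stood apart from TRIB3 and ATF5 from ATF3, and all other neighbours overlapped. CHAC1 was the lowest gene there by its mean, at 16.0 ± 5.39 TPM (SD, n = 3). The place of DDIT3 depends on the nested gene: with its reads added, DDIT3 was above CEBPG in all 6 libraries, by as little as 14.9 against 14.87 TPM in siNC replicate 2.

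The level of each of the other 9 genes was also set against that of ATF4 in the same library, as a description. DDIT3 stood at 0.0326, 0.0346 and 0.0284 of the ATF4 level in siNC and at 0.055, 0.0531 and 0.055 of it in siBCAT1 replicates 1 to 3. PPP1R15A went from 0.0754 ± 0.00854 to 0.108 ± 0.00294 of the ATF4 level (SD, n = 3). TRIB3 went from 0.111 ± 0.00339 to 0.142 ± 0.00409, and CEBPG from 0.042 ± 0.000756 to 0.0541 ± 0.00113 (SD, n = 3). These 4 ratios did not overlap between groups, and their numerators are the genes with larger log2 fold changes than ATF4 that had passed the test, so this adds no separate evidence. The ratios of ATF3, ATF5, CEBPB, CHAC1 and NUPR1 to ATF4 overlapped between groups. NUPR1 was at 0.114 ± 0.00809 of the ATF4 level in siNC and at 0.11 ± 0.00343 of it in siBCAT1 cells (SD, n = 3).

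The spread between libraries of one group differed among the 10 genes. In siNC cells the coefficient of variation was 6.17% for ATF4 and 4.43% for CEBPG, and 30.3% for ATF5, 27.2% for CEBPB, 22.7% for CHAC1 and 22.6% for ATF3. The median over 8065 tested genes with a mean of 10 to 500 TPM was 8.37% in siNC and 7.2% in siBCAT1 libraries. In siBCAT1 cells CHAC1, ATF3 and CEBPB were the most variable, at 33.7%, 28.5% and 21.4%, and ATF5 was at 16.8%. The lowest siNC value came from replicate 2 for 8 of the 10 genes, against 37.0% of tested genes, and the lowest siBCAT1 value from replicate 2 for 9 of them, against 33.2%. The highest siBCAT1 value came from replicate 3 for the same 9 genes, against 24.4% of tested genes. ATF5 had its highest value in replicate 2 of both groups, and DDIT3 had its lowest siNC value in replicate 3. The labels do not say what the replicate numbers stand for.

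**Figure D3:**
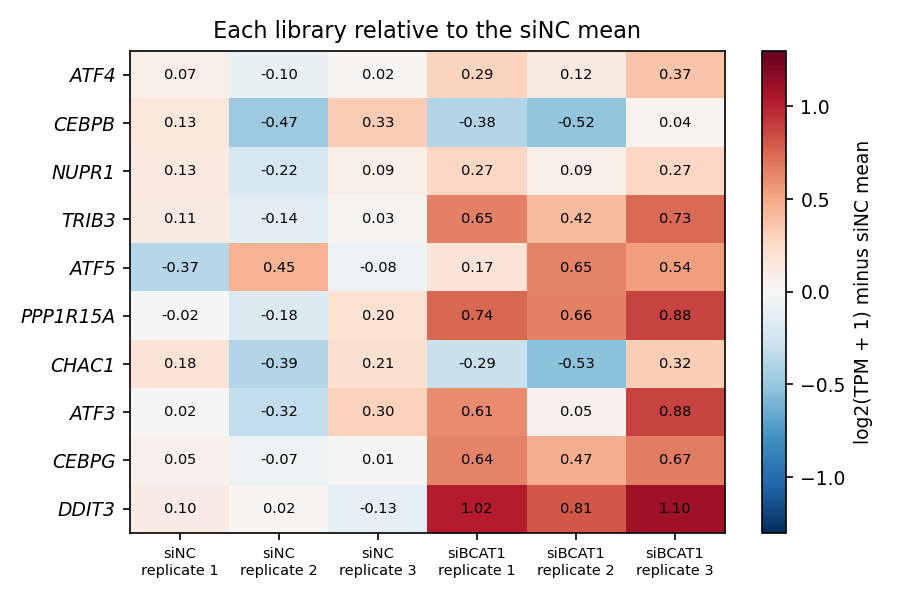
Each library (columns) minus the siNC mean on the log2(TPM + 1) scale for each of the 10 genes (rows), with the value printed in each cell and colour from blue (lower) to red (higher). DDIT3 is at 0.81 or more in all siBCAT1 libraries, while CEBPB and CHAC1 are negative in siBCAT1 replicates 1 and 2, and ATF5 shows its highest value of each group in replicate 2.

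Upstream of ATF4, the list of kinases, eIF2, eIF2B and phosphatase genes held 20 tested genes, of which 4 were higher, 2 lower and 14 not past the test, with a median log2 fold change of 0.10. Of all tested genes 16.7% were higher and 10.4% lower, and the counts of this list are near those shares. EIF2B3, EIF2B2 and EIF2B4, subunits of the exchange factor, had log2 fold changes of 0.64, 0.46 and 0.32 (limma adjusted p = 0.00731, 0.00318 and 0.0139). The other subunits, EIF2B1 and EIF2B5, did not pass the test, at 0.12 and -0.04 (limma adjusted p = 0.378 and 0.725). EIF2B3 was at 20.93, 26.79 and 24.43 TPM in siNC and at 34.29, 37.77 and 42.18 TPM in siBCAT1 libraries. The lower genes were PPP1R15B and PPP1CA, a catalytic subunit of the same phosphatase, which had a log2 fold change of -0.29 (limma adjusted p = 0.00751). None of the 4 kinases passed the test: the log2 fold change was 0.04 for EIF2AK1 (HRI), 0.15 for EIF2AK2 (PKR), -0.23 for EIF2AK3 (PERK) and 0.08 for EIF2AK4 (GCN2), with limma adjusted p of 0.689, 0.234, 0.129 and 0.659. The kinases, EIF2B1 and EIF2B5 were named after their values were seen, and mRNA levels of kinases do not measure their activity.

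Of 34 other bZIP factors 29 were tested, and 6 were higher, 6 lower and 17 not past the test, with a median log2 fold change of 0.05. Over all tested genes the shares were 16.7% higher and 10.4% lower. NFE2L1, a factor that restores proteasome genes, rose most, from 42.76, 42.91 and 47.92 TPM to 105.14, 101.88 and 106.88 TPM (log2 fold change 1.22, limma adjusted p = 0.000164). ATF6, the membrane-bound factor of a separate branch of the unfolded protein response, rose from 36.78, 36.48 and 33.47 TPM to 67.01, 62.96 and 64.34 TPM (log2 fold change 0.85, limma adjusted p = 0.00039). ATF1, a CREB family factor, rose with a log2 fold change of 0.65 (limma adjusted p = 0.0154). FOSL2, an AP-1 subunit, CREB1 and the circadian factor TEF fell, with log2 fold changes of -0.82, -0.70 and -0.53 (limma adjusted p = 0.000894, 0.00809 and 0.045). ATF1 lost its call without siNC replicate 3 (0.55) or siBCAT1 replicate 1 or 2 (0.69 and 0.53), and TEF lost its call without siNC replicate 1, 2 or 3 (-0.52, -0.59 and -0.49) or siBCAT1 replicate 2 or 3 (-0.49 and -0.44). The count of lower factors was 3 without siNC replicate 1 and 2 without siBCAT1 replicate 2.

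Of the 8 paralogues of the 10 genes 5 were tested, to be read beside 16.7% higher and 10.4% lower of all tested genes. CHAC2 and PPP1R15B were lower, 3 did not pass the test, and the limma count of higher ones was 0, with 1 at an unadjusted p under 0.05. That gene was CEBPD, named after its value was seen, at 15.56, 9.3 and 14.87 TPM in siNC and, in siBCAT1 libraries, 21.69, 17.45 and 22.42 TPM (log2 fold change 0.62, limma adjusted p = 0.0535). CEBPA, CEBPE and NUPR2 were below the filter. The lists share genes: PPP1R15B is also in the list of kinases, eIF2, eIF2B and phosphatase genes. CEBPA, CEBPD and CEBPE are also among the other bZIP factors.

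Downstream of ATF4, 15 of 23 enzymes and transporters were higher, 2 lower and 6 not past the test, with a median log2 fold change of 0.40. The shares of all tested genes were 16.7% higher and 10.4% lower. This list, like the others, was chosen with earlier results of these data known, so the difference from these shares is not independent evidence. PCK2, the mitochondrial enzyme that makes phosphoenolpyruvate, was at 23.02, 16.82 and 21.32 TPM in siNC and at 71.33, 50.95 and 60.16 TPM in siBCAT1 libraries (log2 fold change 1.53, limma adjusted p = 0.000849). CTH, which makes cysteine from cystathionine, and GPT2, the mitochondrial alanine transaminase, had log2 fold changes of 1.35 and 0.74 (limma adjusted p = 0.00187 and 0.00786). The 2 lower genes were the amino acid transporters SLC7A5, with a log2 fold change of -0.47, and SLC38A2, with -0.38 (limma adjusted p = 0.00129 and 0.00774). The CARE core was present in 4 of the 17 promoters of this list that were found, those of ASNS, GOT1, SLC3A2 and SLC7A1.

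Of 13 genes that charge or export tRNA 5 were higher, 1 lower and 7 not past the test, with a median of 0.20. All tested genes had shares of 16.7% higher and 10.4% lower. The alanyl, seryl and leucyl synthetases AARS1, SARS1 and LARS1 had log2 fold changes of 0.66, 0.58 and 0.42 (limma adjusted p = 0.000592, 0.000662 and 0.0104). The glycyl synthetase GARS1 was lower, at -0.26 (limma adjusted p = 0.00988). The CARE core was found in 6 of 11 promoters, those of AARS1, CARS1, IARS1, MARS1, NARS1 and TARS1, against 3.67% of all promoters. Of these 6 genes AARS1 and NARS1 passed the test.

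Of 17 stress signalling and cell death targets of ATF4 and CHOP 16 were tested, and 4 were higher, 2 lower and 10 not past the test, with a median of 0.14. Among all tested genes 16.7% were higher and 10.4% lower. PMAIP1, which encodes the BH3-only protein NOXA, was at 25.62, 28.33 and 26.36 TPM in siNC and at 54.83, 43.72 and 51.64 TPM in siBCAT1 libraries (log2 fold change 0.87, limma adjusted p = 0.00124). SESN2, an inhibitor of mTORC1, and CCPG1, a receptor for autophagy of the endoplasmic reticulum, had log2 fold changes of 0.69 and 0.43 (limma adjusted p = 0.0238 and 0.00628). VLDLR, a lipoprotein receptor, was lower at 1.23, 1.13 and 1.19 TPM against 4.28, 2.73 and 3.5 TPM in siNC (log2 fold change -1.03, limma adjusted p = 0.00703). TNFRSF10B, the death receptor DR5 and a known target of CHOP, had a log2 fold change of -0.36 (limma adjusted p = 0.0498). SESN2 lost its call without siNC replicate 1 (0.73) or siBCAT1 replicate 1 or 3 (0.64 and 0.61), and the count of higher genes was then 2. TNFRSF10B lost its call without siNC replicate 1, 2 or 3 (-0.30, -0.38 and -0.39) or siBCAT1 replicate 2 or 3 (-0.32 and -0.28), and the count of lower genes was then 1.

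Of 17 targets of ATF6 and XBP1, which form the other branches of the unfolded protein response, 7 were higher, 2 lower and 8 not past the test, with a median of 0.15. As before, 16.7% of all tested genes were higher and 10.4% lower. The chaperones HYOU1 and HSPA5 (BiP) and the folding factor CRELD2 had log2 fold changes of 0.64, 0.52 and 0.59 (limma adjusted p = 0.00141, 0.00284 and 0.00225). HSPA5 was at 390.09, 381.73 and 391.38 TPM in siNC and at 606.16, 498.07 and 575.01 TPM in siBCAT1 libraries. MANF, a secreted protein, and DNAJB9, a co-chaperone, were lower, at -0.54 and -0.49 (limma adjusted p = 0.0089 and 0.0272). DNAJB9 lost its call without siNC replicate 1 or 3 (-0.52 and -0.41) or siBCAT1 replicate 1, 2 or 3 (-0.54, -0.39 and -0.54), and the count of lower genes was then 1. The ER stress element was found in 4 of the 17 promoters, those of CALR, CRELD2, HSP90B1 and HSPA5.

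The genes most like ATF4 and DDIT3 over the 6 libraries are given as a description, since the libraries share 2 conditions. Pearson's r with ATF4 on the log2(TPM + 1) scale was among the highest for FAM161A (0.995), CTXN1 (0.994), PROCA1 (0.994) and IL24 (0.991). CTXN1 was at 30.87, 24.3 and 27.41 TPM in siNC and at 37.05, 31.19 and 41.32 TPM in siBCAT1 libraries. With DDIT3 it was highest for BTG3 (0.999), NELFE (0.998), LINC01592 (0.998), CLNS1A (0.998) and TMCO6 (0.997). BTG3 was at 57.02, 56.67 and 52.49 TPM in siNC and at 81.88, 75.3 and 84.0 TPM in siBCAT1 libraries. An r above 0.95 was reached by 99 of 14285 genes with ATF4 and by 812 with DDIT3. Among the 10 genes, r with ATF4 was 0.974 for TRIB3, 0.929 for CEBPG, 0.926 for ATF3, 0.908 for PPP1R15A, 0.907 for NUPR1 and 0.886 for DDIT3. It was 0.298 for CHAC1, 0.227 for ATF5 and 0.0662 for CEBPB.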

How the data were processed

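The 6 RNA-seq libraries were grouped by their labels. Per the labels, the authors made stranded mRNA libraries and used fastp, HISAT2, StringTie and GRCh38, with versions not given in the sources used here. The deposited values were read as TPM because each library has nearly the same sum. Genes whose mean reached 1 TPM (14286 of 60664) were compared on log2(TPM + 1) by limma 3.58.1 under R 4.3.3 (eBayes with trend, two-sided, Benjamini-Hochberg adjustment, threshold 0.05). The script was tested on simulated data. TPM keeps no read counts, so no counting error is given.

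The 10 genes and all 7 lists were chosen with earlier results of these data known. The genes named were the 10, BCAT1, up to 3 rises and 3 falls of each list that passed the test without overlap of the groups, and the 5 genes most like ATF4, of which 1 is not reported here, and the 5 most like DDIT3. BCAT2, TRIB1, TRIB2, CEBPD, overlapping genes and promoter matches were named besides. Positions and leaders came from GENCODE 29 on GRCh38 and promoters from RefSeq (GRCh38.p14). Python 3.11.15, pandas 2.3.3, scipy 1.17.1 and matplotlib 3.10.9 were used. Alternatives were a pseudocount of 0.1, no filter, a mean of at least 5 TPM, a replicate block, each library left out, median-ratio scaling, quantile normalization, no trend, loess-corrected values for gene GC content and length (span 0.5), and, chosen after the data were seen, the nested gene added to DDIT3.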

Additional observations from a re-analysis of the deposited data

How the results depend on the processing

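DDIT3, PPP1R15A, TRIB3, CEBPG and BCAT1 kept direction and call in all alternatives tried. Of the 10 genes, 4 to 7 were higher and 0 lower in every alternative. ATF4 was also lost without the filter (adjusted p = 0.125), with median-ratio scaling (0.117), quantile normalization (0.0966), no trend (0.106) and the GC content and length correction (0.0828), the cause of which was not tested. CHAC1 ranged from -0.41 to 0.01 with 1 library left out and turned positive without siBCAT1 replicate 2. The genes called numbered 3865, with 2567 without the filter and 2318 to 3706 with 1 library left out. Without the filter, the lower bZIP factors were 3, the higher and lower stress and death targets 2 and 1, and the lower ATF6 and XBP1 targets 1. With 1 library left out these ranged from 2 to 7 for lower bZIP factors, 2 to 4 and 1 to 2 for higher and lower stress and death targets, and 1 to 3 for lower ATF6 and XBP1 targets. Lower eIF2 genes were 4 with median-ratio scaling and 5 with quantile normalization. Higher paralogues were 1 with a pseudocount of 0.1, a mean of at least 5 TPM or the GC correction. Lower tRNA charging genes were 2 with quantile normalization or the GC correction, and lower stress and death targets were 1 with a mean of at least 5 TPM or no trend. Of 31 other named genes 26 kept call and direction in all alternatives.

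With the replicate number as a block, 4568 genes were called and 7 of the 10 genes were higher, ATF3 (adjusted p = 0.0103) and ATF5 (0.0268) being added. Lower eIF2 genes were then 4, higher paralogues 1, and higher and lower stress and death targets 7 and 4. Deviations of same-numbered libraries correlated at 0.0844, 0.102 and 0.124, and each library correlated best with its own number. The labels do not say that a number marks a pair. The depth is unknown, so precision rests on 3 libraries per group.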
